A study of Mus musculus with 8 samples.

Results

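The prostanoid enzymes described here were 10 genes: the cyclooxygenases Ptgs1 and Ptgs2, the terminal synthases Ptges, Ptges2, Ptges3, Ptgds, Hpgds, Ptgis and Tbxas1, and the inactivating enzyme Hpgd. They were found on the arrays by gene name, with older synonyms accepted, and 16 of 41174 non-control probes carried such a name. Gene expression was measured in whole liver of male mice, of strain C57BL/6 in the labels and C57BL/6J in the methods, that were 14 to 17 weeks old per the labels when the diets began, with no transgene or deletion in either group. The 4 STD mice ate standard chow for 4 weeks, and the 4 ATH mice ate a high-fat, high-cholesterol atherogenic diet, which per the study's methods also contained cholic acid, over the same time. Each mouse had 1 single-color Agilent array, and the comparison asks how the diet altered expression of the genes of arachidonic acid metabolism, here those of its cyclooxygenase branch.

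Cyclooxygenases turn arachidonic acid, released from membrane phospholipids, into the unstable intermediate prostaglandin H2. The cell type then decides the product, because terminal synthases differ in whether they make prostaglandin E2, prostaglandin D2, prostacyclin or thromboxane. In liver much of this synthesis is known from Kupffer cells, the resident macrophages, and from endothelial cells, whereas hepatocytes carry prostanoid receptors and take up and break down the products.

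Livers of mice fed the ATH diet had more mRNA signal for thromboxane synthase (Tbxas1, 2.88-fold) and for the lipocalin-type prostaglandin D2 synthase (Ptgds, 1.93-fold) and less for the membrane-associated prostaglandin E2 synthase Ptges2, which fell to 66.3% of its STD mean. The inducible cyclooxygenase Ptgs2 was well above background in 2 of the 4 ATH livers and in none of the STD livers. The prostacyclin synthase Ptgis and the constitutive prostaglandin E2 synthase Ptges3 did not pass the test, and the inactivating enzyme Hpgd was called lower by 1 of its 2 detected probes. With the replicate number as a block, none of the 3 gene calls passed 5% (adjusted p = 0.058 for Tbxas1, 0.064 for Ptgds and 0.051 for Ptges2).

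Each value below is a scaled log2 signal, from which the 75th percentile of the same array has been taken off, and is read only against the same probe on other arrays. A probe counted as detected if 3 or more of the 4 arrays of a diet read it well above background. This held for 12 of the 16 probes and for 9 of the 10 genes, all but Ptgs2, and for 31056 probes on the whole array. Differences were tested by limma across all detected probes at a false discovery rate of 5%. At that rate 3 of the 12 probes were higher on the ATH diet, where 3.06% of all detected probes were, and 2 were lower, where 4.94% were. Without scaling 5 of the 12 were called higher and 0 lower, where 6990 and 374 of all 31056 were. With spike-in scaling 4 of the 12 were called higher and 0 lower, where 2537 and 398 of all were. With 1 probe per gene, the brightest, 2 of 9 genes were higher (Tbxas1 and Ptgds), where 4.05% of 16558 genes were, and 1 was lower (Ptges2), where 5.3% were. At the 1% rate of the study's methods no member was called, where 0.528% of probes were. By limma 7 of the 12 probes had an unadjusted p below 0.05. Such values were common on the array, since the Hpgd probe A_51_P458778 with an unadjusted p of 0.053 (limma) ranked only 9038 of 31056. The median log2 fold change (ATH over STD) was 0.29 over the 9 genes, with 5 positive and 4 negative, and -0.14 over all genes. Without scaling Ptges2 alone of these 4 stayed negative. With the replicate block 1 of the 12 probes was called, of Hpgd, without the detection filter 1, of Ptges2, and by the methods' test none. Over the whole array these settings called 1322 of 31056, 1086 of 41174 and 22 of 31056 probes.

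All STD arrays lay on one slide and all ATH arrays on another, so diet and slide cannot be told apart. The 75th percentile was 8.81 to 8.91 on the STD arrays and 9.11 to 9.46 on the ATH arrays in log2 signal, and without this scaling the median log2 fold change of all detected probes was 0.30 rather than -0.15. The liver label held: Alb, the hepatocyte's albumin gene, had scaled log2 signals of 10.30 to 10.35 on the STD arrays and 9.63 to 10.14 on the ATH arrays. Summed over 9 hepatocyte markers, the signal was 3131 to 3149 times the scaling value on the STD arrays and 2041 to 2787 on the ATH arrays, and 1 of the 9 was called lower, although without scaling 7 of the 9 had higher means on the ATH diet. Summed over 15 macrophage markers it was 119 to 144 on the STD arrays and 414, 231, 855 and 966 on ATH arrays 1 to 4. All 15 macrophage markers were higher on the ATH diet by their means and 9 were called. In whole liver a change in the number of cells of a type and a change in RNA per cell cannot be told apart, and the part of these marker shifts in any result below was not tested.

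**Figure D1:**
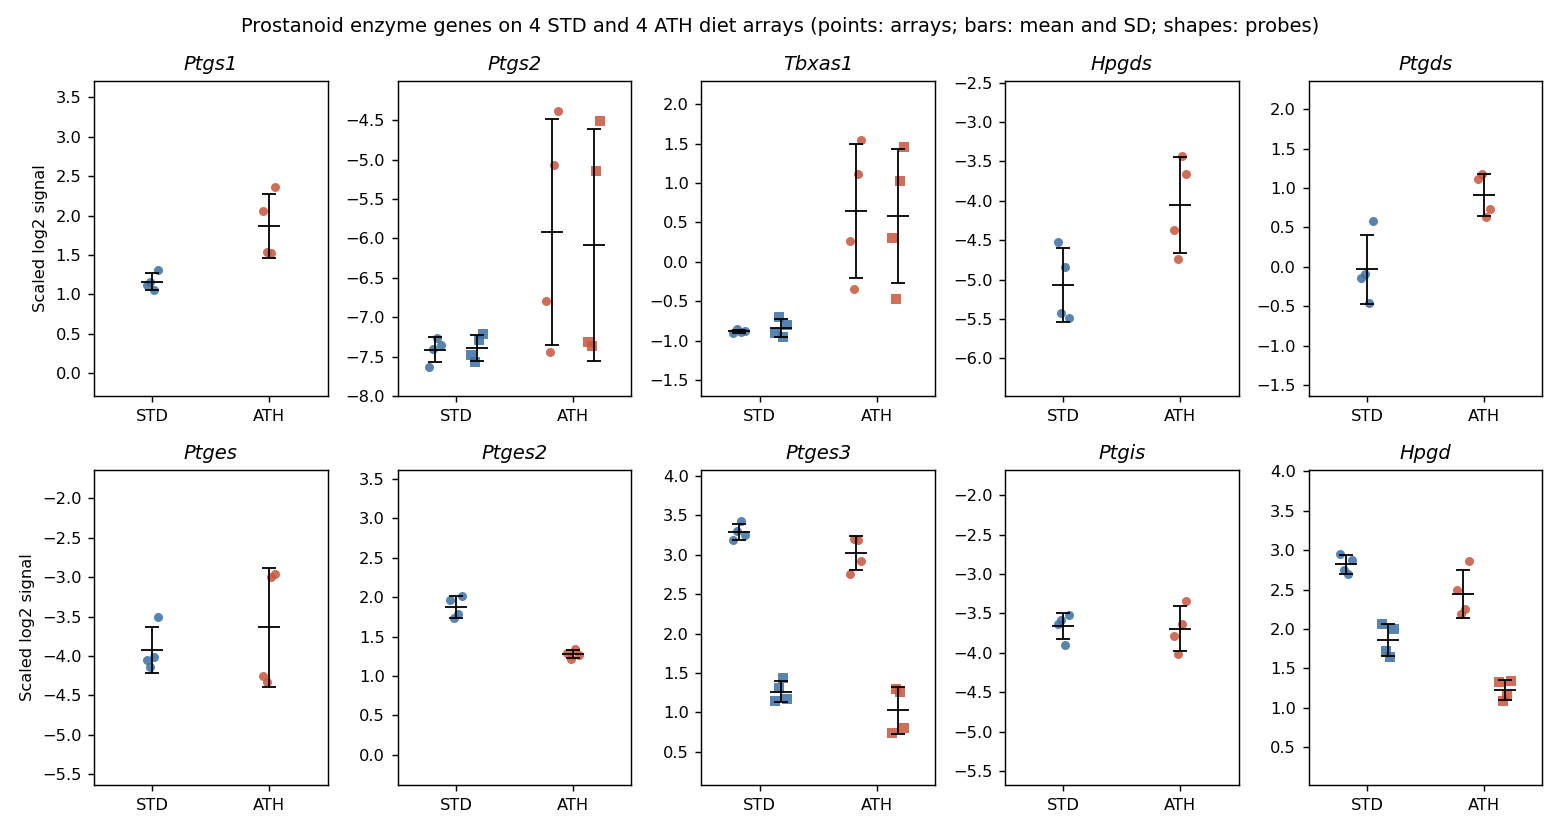
Scaled log2 signal (relative to the 75th percentile of the same array) of each prostanoid enzyme gene on the 4 STD and 4 ATH arrays, with 1 point per array, bars for mean and SD, and a second shape for a second probe of the same gene. Each panel has its own vertical range. The ATH points of Ptgs1, Tbxas1 and Ptgds lie above all STD points, those of Ptges2 lie below, and Ptgs2 is high on 2 of the 4 ATH arrays.

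Ptgs1 encodes the cyclooxygenase that most cells make constitutively. Its probe read 1.12, 1.16, 1.06 and 1.31 on STD arrays 1 to 4 and 2.05, 1.54, 1.52 and 2.36 on ATH arrays 1 to 4. Every ATH array was above every STD array, with ATH arrays 1 and 4 the highest. Among all detected probes 19.9% had diet groups that did not overlap, and so had 6 of the 12 member probes. The log2 fold change of Ptgs1 was 0.71 (SE 0.20, n = 4 per group), a 1.63-fold higher mean, and it did not pass 5% (adjusted p = 0.062, limma). It passed without scaling (log2 fold change 1.16, adjusted p = 0.016), with spike-in scaling (1.02, adjusted p = 0.036), with normexp background correction (0.70, adjusted p = 0.030) and without ATH array 2 (0.82, adjusted p = 0.037).

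Ptgs2 encodes the inducible cyclooxygenase, which inflammatory stimuli switch on in macrophages and other cells. It was the one member with no detected probe, since neither of its probes was well above background on any STD array and both were well above it on ATH arrays 3 and 4 only. The probe A_51_P254855, printed in 10 spots per array, read -7.63, -7.40, -7.26 and -7.35 on STD arrays 1 to 4 and -6.79, -7.45, -5.06 and -4.38 on ATH arrays 1 to 4. The other probe, A_52_P224760, read -7.48, -7.57, -7.29 and -7.22 on the STD arrays and -7.31, -7.36, -5.14 and -4.50 on the ATH arrays. ATH array 2 thus lay within the STD range on both probes, whereas ATH arrays 3 and 4 lay far above it.

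The SD over the 10 spots, a technical spread within an array, was 0.23 on ATH array 3 and 0.15 on ATH array 4, and up to 0.70 on the other arrays (ATH array 1). Against the highest lower limit among the STD arrays (the lowest signal among probes well above background), Ptgs2 on ATH array 4 was at least 1.92-fold higher by the first probe and at least 1.76-fold higher by the second. On ATH array 3 it was at least 1.20-fold and 1.13-fold higher. No fold is given for the diets as groups, because the ATH mean lay below that limit. Without the detection filter the log2 fold changes were 1.49 (adjusted p = 0.19) and 1.31 (adjusted p = 0.25). Ptgs2 therefore showed a signal in 2 of 4 ATH livers and no diet difference that passed the test.

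Tbxas1 encodes thromboxane A synthase, which makes the platelet-aggregating and vasoconstricting prostanoid of platelets and macrophages. It had the largest log2 fold change of the detected members. The 2 detected probes abut on chromosome 6 of the mm7 build named by the array design, at chr6:39015222-39015281 and chr6:39015282-39015341 on the plus strand. Read as 1 stretch, 2 frames run without a stop through the first probe, one to TGA at base 12 and the other to TAG at base 17 of the second. The first probe is shown because it carries one of the 3 calls in the higher direction:
Tbxas1 probe A_51_P448671: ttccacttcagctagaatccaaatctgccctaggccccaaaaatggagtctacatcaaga

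The brighter Tbxas1 probe, A_51_P448664, read -0.91, -0.86, -0.89 and -0.88 on STD arrays 1 to 4 and 0.26, -0.35, 1.11 and 1.55 on ATH arrays 1 to 4. The probe A_51_P448671 read -0.90, -0.70, -0.96 and -0.81 on the STD arrays and 0.30, -0.47, 1.03 and 1.46 on the ATH arrays. On both, the STD arrays were nearly level, no ATH array overlapped them, and the ATH arrays ran from 2 at the lowest through 1 and 3 to 4. Tbxas1 rose by both probes, with log2 fold changes of 1.53 (SE 0.36, adjusted p = 0.041) and 1.42 (SE 0.36, adjusted p = 0.049), or 2.88-fold and 2.67-fold. On single ATH arrays the first probe stood between 1.45-fold and 5.39-fold above the STD mean.

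These calls lie near the threshold. Blocking on the replicate number gave an adjusted p of 0.058 and 0.070, and without any 1 array other than ATH array 2 it was 0.054 to 0.099 for the first probe and 0.066 to 0.12 for the second. Without ATH array 2 it was 0.0067 and 0.0064. Both probes kept the direction under each scaling, with log2 fold changes of 1.97 and 1.87 without scaling and 1.84 and 1.73 with spike-in scaling. The second probe lost its call under quantile normalization (adjusted p = 0.058), median scaling (0.05002) and with the authors' log2 values (0.0506). The summed macrophage markers ordered the ATH arrays the same way, 4, 3, 1 and 2. Of 10 platelet markers 7 had higher means on the ATH diet and 3 lower (median log2 fold change 0.38), and none was called. The platelet genes Pf4 and Ppbp were 2.17-fold and 1.97-fold higher (adjusted p = 0.057 and 0.067), and with the replicate block Pf4 passed (adjusted p = 0.046). The platelet sum, 3.73 to 6.53 times the scaling value on the STD arrays and 3.88 to 4.93 on the ATH arrays, was carried mostly by Itgb3, whose log2 fold change was -0.76 (adjusted p = 0.086). A further probe named Tbxas1, which matches a cDNA clone about which the files say nothing more, was well above background on 1 STD array and on no ATH array, and is not read as a level of the gene.

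By Pearson correlation over the 8 arrays, the genes whose signal was most like that of Tbxas1, among 16549 others, were Cmtm7 (r = 0.999), Fcer1g, the common gamma chain of Fc receptors on myeloid cells (r = 0.998), and Parp8 (r = 0.998). After each diet's mean was taken off, r was still 0.996, 0.996 and 0.994. These values are a description over arrays that fall into 2 groups and share their scaling.

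Ptgis encodes prostacyclin synthase, an enzyme of vessel walls whose product opposes thromboxane. Its probe read -3.63, -3.58, -3.90 and -3.52 on STD arrays 1 to 4 and -3.79, -4.02, -3.63 and -3.34 on ATH arrays 1 to 4. The ATH range enclosed the STD range. The log2 fold change was -0.03 (SE 0.17, adjusted p = 0.92), and its sign turned with the scaling, to 0.41 without scaling, 0.28 with spike-in scaling, 0.07 with quantile normalization and 0.04 with median scaling.

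Because Tbxas1 and Ptgis draw on the same substrate, their difference was also taken within each array, where a scaling constant cancels. Tbxas1 minus Ptgis averaged 2.78 ± 0.17 (SD) over the 4 STD arrays and 4.34 ± 0.57 (SD) over the 4 ATH arrays. The ratio of Tbxas1 to Ptgis signal was therefore 2.95-fold higher on the ATH diet, with no overlap between the groups (exact permutation test, two-sided, p = 0.0286, the smallest that 4 against 4 arrays can give). Over the 4 pairs tested the adjusted p was 0.0571, which this design cannot bring lower with 2 pairs at the smallest p.

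The prostaglandin D2 synthases came next in size of change. Ptgds is the lipocalin-type synthase, which is secreted and also carries lipophilic molecules, and Hpgds is the hematopoietic type of mast cells, macrophages and some lymphocytes, listed on the array under its older name Ptgds2. The proteins are unrelated in sequence, and the probes are shown because each gene was read by 1 probe only. Each of these 60-base probes covers a longer stretch of genome, 532 bases for Ptgds (chr2:25474633-25475164, minus strand, mm7) and 3529 bases for Hpgds (chr6:65107840-65111368, minus strand, mm7), and so reads spliced RNA. The capitals mark a stop codon near the probe's end that closes an otherwise open frame:
Ptgds probe A_51_P157406: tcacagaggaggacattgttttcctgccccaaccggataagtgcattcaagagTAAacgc
Hpgds probe A_52_P536796: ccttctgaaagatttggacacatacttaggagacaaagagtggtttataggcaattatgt

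Ptgds read -0.14, -0.10, -0.46 and 0.58 on STD arrays 1 to 4 and 1.11, 1.17, 0.63 and 0.74 on ATH arrays 1 to 4. The groups did not overlap, but STD array 4 came within 0.053 of the lowest ATH array. Ptgds rose 1.93-fold (log2 fold change 0.95, SE 0.23, adjusted p = 0.044). With the replicate block the adjusted p was 0.064, without any 1 array other than STD array 4 it was 0.061 to 0.11, and without STD array 4 it was 0.034. Scaling did not turn the direction, and spike-in scaling gave a log2 fold change of 1.26 and no scaling one of 1.39. Unlike Tbxas1, Ptgds was highest on ATH arrays 2 and 1, the pair of ATH arrays with the lowest macrophage marker sums. The genes most like it over the 8 arrays were Adam11 (r = 0.973), the creatine transporter Slc6a8 (r = 0.967) and Leprotl1 (r = 0.959).

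Hpgds was dim. It read -4.52, -5.43, -4.83 and -5.48 on STD arrays 1 to 4, where STD array 4 was not well above background, and -4.37, -4.73, -3.43 and -3.66 on ATH arrays 1 to 4. The groups overlapped, since ATH array 2 lay below STD array 1, and ATH arrays 3 and 4 were the highest. Its mean was 2.02-fold higher on the ATH diet (log2 fold change 1.02, SE 0.33), which did not pass 5% (adjusted p = 0.087). It passed without scaling (1.46, adjusted p = 0.031) and without ATH array 2 (1.25, adjusted p = 0.038), whereas normexp background correction left a log2 fold change of 0.11. Of 8 mast cell markers 6 were detected, and they summed to 0.483 to 0.710 times the scaling value on the STD arrays and 0.528 to 0.791 on the ATH arrays. Of the 6, 3 had higher and 3 lower means on the ATH diet (median log2 fold change -0.06), and 1, Cma1, was called higher.

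The difference Hpgds minus Ptgds averaged -5.03 ± 0.82 (SD) over the 4 STD arrays and -4.96 ± 0.88 (SD) over the 4 ATH arrays, and the test did not separate the diets (exact permutation test, two-sided, p = 0.914, adjusted p = 0.914). The STD values include the Hpgds reading of STD array 4 that was not well above background, and under normexp background correction the difference between the diets was -0.744 (adjusted p = 0.0857), against 0.0726 here.

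Prostaglandin E2 is made by 3 synthases. Ptges is the inducible microsomal enzyme that often acts with Ptgs2, Ptges2 is a second membrane-associated enzyme, and Ptges3, also known as the Hsp90 co-chaperone p23, is a cytosolic and constitutive one. Ptges read -4.05, -4.15, -4.01 and -3.50 on STD arrays 1 to 4 and -4.25, -4.33, -2.99 and -2.97 on ATH arrays 1 to 4. As for Ptgs2, ATH arrays 3 and 4 stood above every STD array. For Ptges, ATH arrays 1 and 2 were below every STD array. For Ptgs2, ATH array 1 was above every STD array by the probe A_51_P254855 and within their range by the other probe. The log2 fold change was 0.29 (SE 0.35, adjusted p = 0.61), and under normexp background correction it was -0.05.

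Ptges2 went the other way. It read 1.96, 1.73, 1.78 and 2.02 on STD arrays 1 to 4 and 1.29, 1.22, 1.34 and 1.27 on ATH arrays 1 to 4. The ATH arrays were close together, with an SD of 0.052, and all below the STD arrays by 0.39 or more. Ptges2 fell to 66.3% of its STD mean (log2 fold change -0.59, SE 0.12, adjusted p = 0.026), a change of -0.44 relative to the median of all detected probes. The call depends on the scaling, since the log2 fold change was -0.15 without scaling (adjusted p = 0.44) and -0.28 with spike-in scaling (adjusted p = 0.23). With the replicate block the adjusted p was 0.051, and it was 0.057 to 0.079 without ATH array 3 or 4 or without STD array 1, 3 or 4. Among the genes most like Ptges2 over the 8 arrays were the phosphatidylserine synthase Ptdss1 (r = 0.989) and Raet1e (r = 0.987).

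The pair of Ptges3 probes gave 3.19, 3.30, 3.43 and 3.25 on STD arrays 1 to 4 and 2.76, 3.21, 3.19 and 2.93 on ATH arrays 1 to 4 for the brighter one. The log2 fold changes were -0.27 (adjusted p = 0.23) and -0.24 (adjusted p = 0.38), so the probes, 542 bases apart in the genome, differed by 0.037. Neither passed the test, and both signs turned without scaling (0.17 and 0.21) and with spike-in scaling (0.037 and 0.074).

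Ptges minus Ptges2, the inducible over the other membrane-associated synthase, averaged -5.80 ± 0.21 (SD) over the 4 STD arrays and -4.92 ± 0.73 (SD) over the 4 ATH arrays. The difference of 0.88 did not pass the test (exact permutation test, two-sided, p = 0.0857, adjusted p = 0.114), and ATH arrays 1 and 2 lay just below the highest STD array. Ptgs2 minus Ptgs1 was not tested, since Ptgs2 was not detected.

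Hpgd encodes hydroxyprostaglandin dehydrogenase, which starts the inactivation of prostaglandins. Its brightest probe, A_51_P458778, read 2.96, 2.75, 2.70 and 2.88 on STD arrays 1 to 4 and 2.49, 2.19, 2.26 and 2.86 on ATH arrays 1 to 4. The probe A_51_P458781, 359 bases upstream, read 2.07, 1.72, 1.65 and 2.01 on the STD arrays and 1.33, 1.08, 1.15 and 1.34 on the ATH arrays. The ATH arrays lay below the STD arrays on the second probe throughout, whereas on the first ATH array 4 reached the STD range.

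The Hpgd probes disagreed on the call. The log2 fold change was -0.37 (SE 0.17, adjusted p = 0.18) by the brightest probe and -0.63 (SE 0.14, adjusted p = 0.036) by the second, which thus fell to 64.4% of its STD mean. The second probe kept the call with the replicate block (adjusted p = 0.046) and without ATH array 2 (adjusted p = 0.044), and lost it without any other array (adjusted p 0.051 to 0.095), without scaling (log2 fold change -0.19, adjusted p = 0.42) and with spike-in scaling (-0.32, adjusted p = 0.25). It was also lost under median scaling (adjusted p = 0.067), without the detection filter (0.060) and by the methods' test (0.10). Without scaling the brightest probe read 0.07, so the direction held under every scaling for the second probe alone. The remaining Hpgd probe, matching a cDNA clone, was not well above background on any array.

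**Figure D2:**
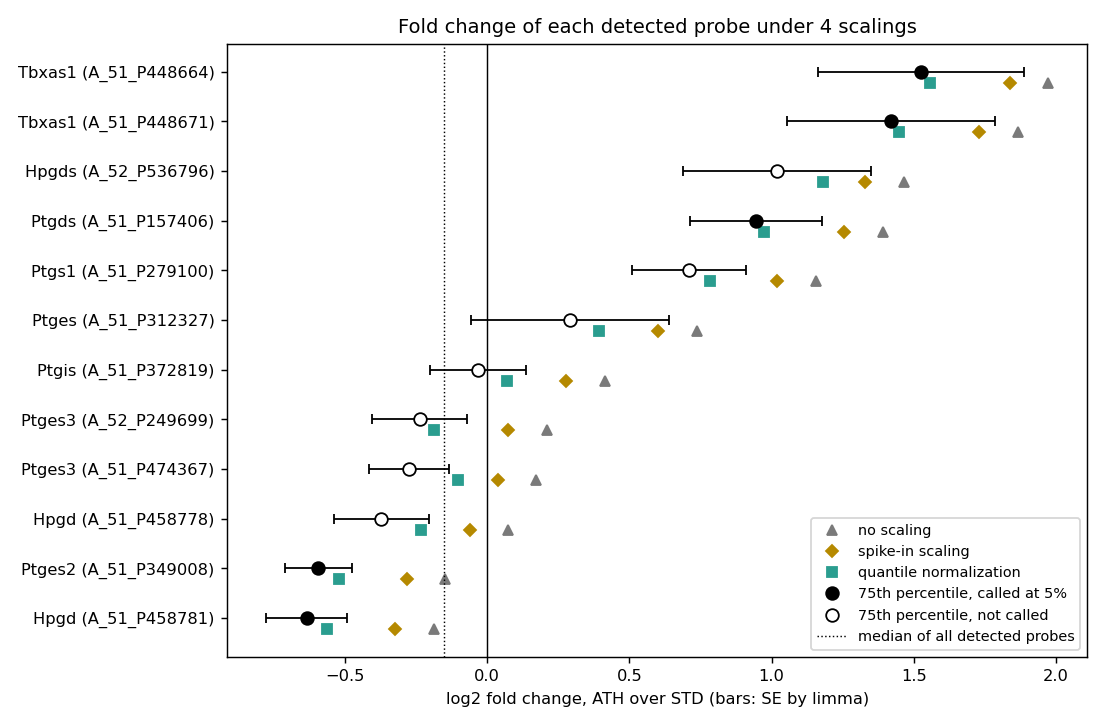
Log2 fold change (ATH over STD) of the 12 detected probes, with bars for the SE by limma. Circles show the scaling by the 75th percentile, filled where the probe was called at 5%, the other symbols show 3 other scalings, and the dotted line marks the median of all detected probes at -0.15. Tbxas1, Ptgds, Hpgds and Ptgs1 are positive under all 4 scalings, Ptges2 and the second Hpgd probe are negative under all 4 but closer to 0 without scaling, and Ptges3, Ptgis and the first Hpgd probe change sign.

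Synthesis and inactivation were set against each other by Ptgs1 minus Hpgd, with the brightest probe of each. This averaged -1.66 ± 0.12 (SD) over the 4 STD arrays and -0.58 ± 0.13 (SD) over the 4 ATH arrays. The ratio of Ptgs1 to Hpgd signal was 2.12-fold higher on the ATH diet, the groups did not overlap (exact permutation test, two-sided, p = 0.0286, adjusted p = 0.0571). Neither gene's brightest probe passed 5% by itself. An array's scaling constant cancels in this ratio, and quantile normalization, which is not a constant, left a difference of 1.01 against 1.08.

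**Figure D3:**
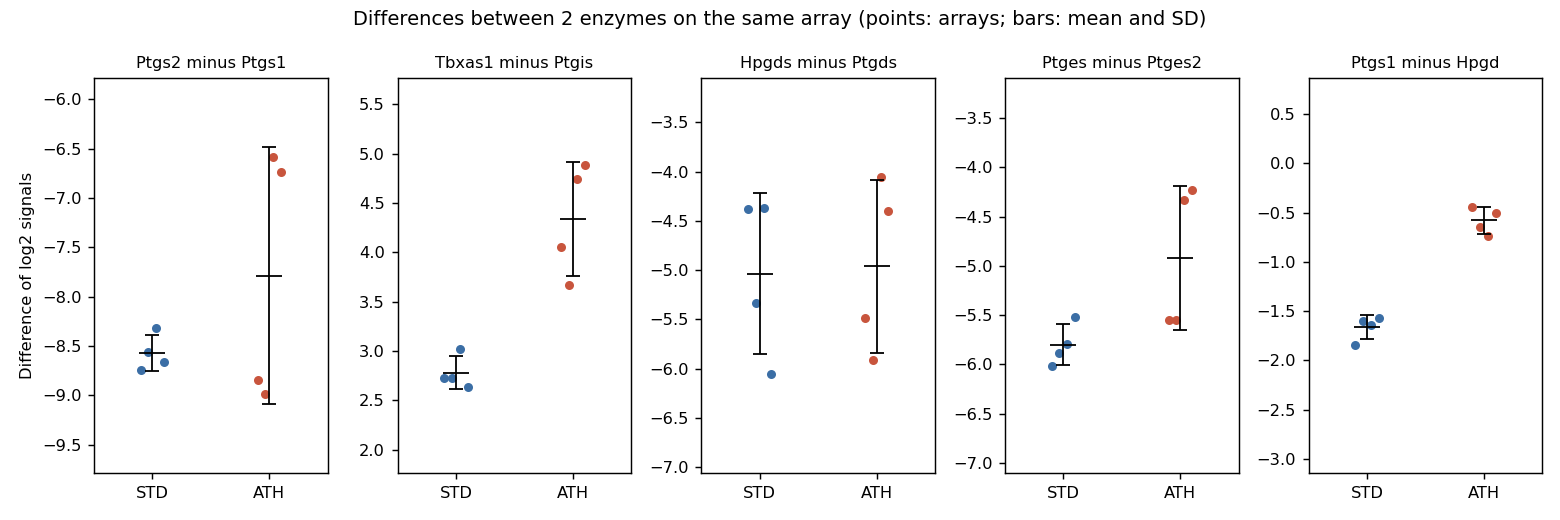
Differences between the log2 signals of 2 enzymes on the same array, with 1 point per array and bars for mean and SD, on the 4 STD and 4 ATH arrays. The vertical range spans the same number of log2 units in every panel. Tbxas1 minus Ptgis and Ptgs1 minus Hpgd are higher on every ATH array than on any STD array, and the other 3 pairs overlap.

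The members did not follow a common pattern over the ATH livers. Both Tbxas1 probes, Ptges and Ptgis had the order 4, 3, 1, 2 from highest to lowest. This was also the order of the macrophage, lymphocyte and cholangiocyte marker sums. Single macrophage markers could differ from their sum, as Vsig4 and Clec4f did. Both Ptgs2 probes read in the order 4, 3, 1, 2 too, but were not well above background on ATH arrays 1 and 2. The cholangiocyte sum was mostly Spp1, and of the 8 cholangiocyte markers 4 had higher and 4 lower means (median log2 fold change 0.04). Hpgds had the order 3, 4, 1, 2, like the neutrophil marker sum. That sum was 1.87 to 3.93 times the scaling value on the STD arrays and 3.47 to 15.3 on the ATH arrays. It was mostly S100a9. Of the 8 detected neutrophil markers 7 had higher and 1 lower means (median log2 fold change 0.55), and none was called. Ptgs1 and both Hpgd probes were highest on ATH arrays 4 and 1, and Ptgds on ATH arrays 2 and 1. Ptges2 was nearly level over them, from 1.22 to 1.34. The summed hepatocyte markers had the order 2, 1, 3, 4, and that of 10 endothelial markers 2, 1, 4, 3 as for Ptgds, at 22.2 to 29.7 times the scaling value on the STD arrays and 22.6 to 34.6 on the ATH arrays. The mast cell marker sum had this order 2, 1, 4, 3 too, unlike Hpgds. These orders over 4 arrays are a description.

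**Figure D4:**
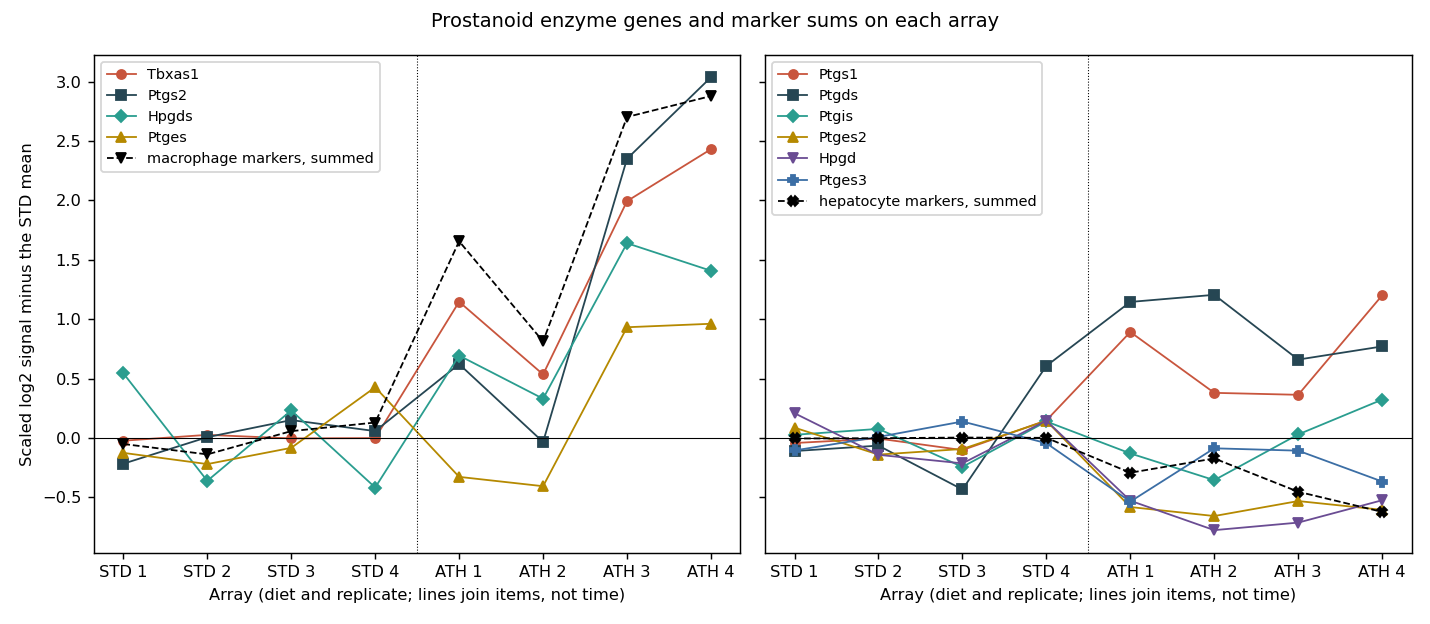
Scaled log2 signal of each member gene minus its mean over the STD arrays, on each of the 8 arrays, with the summed macrophage markers (left) and hepatocyte markers (right) as dashed lines. The probe shown is the brightest, or for Hpgd the probe with the call and for Ptgs2 the one with 10 spots. Tbxas1, Ptgs2, Hpgds and Ptges are highest on ATH arrays 3 and 4, as the summed macrophage markers are. Of the genes on the right, Ptgis has the same order of ATH arrays over a smaller range, and the others do not.

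RefSeq promoters (GRCm38.p6, 250 bases before to 50 after the start site) were found for 9 of the 10 members, all but Ptgis. Both strands were searched for GAGGAA (the core letters bound by the myeloid factor PU.1), for the TATA box as TATAAA, for the E-box as CACGTG, for the core of cAMP response elements as TGACGT, for part of C/EBP sites as TTGCGC, for the Sp1 box as GGGCGG and for the CCAAT box by its name. GAGGAA was in 6 of the 9 member promoters, among them that of Hpgd and not that of Ptgds, and in 28.3% of all 32851 promoters of this length. TATAAA was in 2 of 9 (13.6% of all), CACGTG in 2 (7.15%), TTGCGC in 2 (6.49%), TGACGT in 1 (7.51%), GGGCGG in 4 (35.7%) and CCAAT in 0 (37.4%). Such matches describe letters and not binding.

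Printed below, with the matches in capitals, are the promoters of Tbxas1, Hpgds and Ptgs1, where GAGGAA starts within 50 bases before the start site, and that of Ptgs2, which holds the most kinds of match. Positions count from 0 at the start site. In Tbxas1 (chr6:38918736-38919035, plus strand) the complement of GAGGAA at -19 runs into TATAAA matches on both strands at -13 and -11. In Hpgds (chr6:65144681-65144980, minus strand) GAGGAA lies at -49, and in Ptgs1 (chr2:36230176-36230475, plus strand) at -24. In Ptgs2 (chr1:150099781-150100080, plus strand) GAGGAA lies at -247, GGGCGG at -170, TTGCGC on both strands at -69 and -67, and the complement of TGACGT at 12 overlaps CACGTG at 16.
Tbxas1 promoter: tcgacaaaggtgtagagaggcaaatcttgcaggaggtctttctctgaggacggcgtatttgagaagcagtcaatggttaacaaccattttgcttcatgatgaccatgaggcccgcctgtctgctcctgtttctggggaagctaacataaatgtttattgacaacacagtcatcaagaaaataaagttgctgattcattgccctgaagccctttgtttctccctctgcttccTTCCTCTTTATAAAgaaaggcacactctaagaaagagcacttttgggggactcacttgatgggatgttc
Hpgds promoter: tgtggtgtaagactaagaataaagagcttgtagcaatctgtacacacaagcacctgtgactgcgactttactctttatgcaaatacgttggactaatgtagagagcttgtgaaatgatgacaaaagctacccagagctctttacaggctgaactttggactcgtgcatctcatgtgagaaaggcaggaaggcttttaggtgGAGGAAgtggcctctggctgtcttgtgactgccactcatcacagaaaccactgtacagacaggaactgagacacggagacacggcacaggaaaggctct
Ptgs1 promoter: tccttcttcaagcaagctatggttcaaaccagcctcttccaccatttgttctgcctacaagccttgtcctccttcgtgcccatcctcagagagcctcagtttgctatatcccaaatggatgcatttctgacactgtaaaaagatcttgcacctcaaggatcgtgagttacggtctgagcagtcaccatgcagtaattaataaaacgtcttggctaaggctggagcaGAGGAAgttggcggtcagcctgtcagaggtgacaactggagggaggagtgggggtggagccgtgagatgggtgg
Ptgs2 promoter: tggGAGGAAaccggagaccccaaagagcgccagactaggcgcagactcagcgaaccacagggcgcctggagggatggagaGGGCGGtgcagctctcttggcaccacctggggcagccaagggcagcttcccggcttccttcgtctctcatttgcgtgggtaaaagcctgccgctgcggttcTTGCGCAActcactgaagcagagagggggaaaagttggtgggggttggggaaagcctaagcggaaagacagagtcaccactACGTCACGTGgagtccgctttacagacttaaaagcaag

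Prostanoids act through receptors on the cell surface. Of the 9 receptor genes 5 were detected, with 2 higher and 3 lower by their means. Of these 5, 1 was called higher, where 4.05% of all genes were, and 0 lower, where 5.3% were. Ptger2, an activating receptor for prostaglandin E2, read -3.17, -3.27, -3.50 and -3.43 on STD arrays 1 to 4 and -2.32, -2.86, -2.40 and -2.31 on ATH arrays 1 to 4. It rose 1.83-fold with no overlap (log2 fold change 0.87, SE 0.16, adjusted p = 0.021, and 0.049 with the replicate block). The prostacyclin receptor Ptgir had the larger log2 fold change, 1.13, but overlapping groups (adjusted p = 0.12). Ptger3 (-0.52, adjusted p = 0.12), the second prostaglandin D2 receptor Ptgdr2 (-0.45, adjusted p = 0.10) and the thromboxane receptor Tbxa2r (-0.23, adjusted p = 0.46) did not pass. Ptger1, Ptger4, Ptgfr and Ptgdr were not detected.

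A further list of 14 handling genes held those that make, carry or break down prostanoids and, besides these, Ptgfrn, which acts on a receptor. Of the 14, 13 were detected and 4 were called. Of the 13, 2 were called higher, where 4.05% of all genes were, and 2 lower, where 5.3% were. Slco2a1, the prostaglandin transporter that takes prostaglandins up into cells, read 3.27, 3.31, 3.63 and 3.60 on STD arrays 1 to 4 and 2.72, 2.42, 2.01 and 2.21 on ATH arrays 1 to 4. It fell by 1.11 on the log2 scale (SE 0.18, adjusted p = 0.015), and by 0.66 without scaling. Ptgfrn, a membrane protein that inhibits the prostaglandin F receptor, fell by 1.08 (adjusted p = 0.018, and 0.051 with the replicate block). Akr1b3, an aldose reductase that can make prostaglandin F2 alpha, rose by 0.92 (adjusted p = 0.023), and the carbonyl reductase Cbr3 rose by 1.73 (adjusted p = 0.043, and 0.064 with the block). Akr1b7 (1.27, adjusted p = 0.050) and Gstm2 (-0.90, adjusted p = 0.054) had adjusted p-values just above 5%. Their groups did not overlap, as was so for 19.9% of all detected probes. Leaving out 1 array moved the number called from 4 to between 0 and 4 in this list and from 1 to between 0 and 2 among the receptors, with 2 handling genes called without ATH array 3 or 4 or STD array 1, 2 or 4, none without STD array 3, and no receptor without ATH array 3 or 4 or STD array 1, 3 or 4. Over all detected probes leaving out 1 array gave 394 to 3979 calls, against 2483 with all arrays. The median log2 fold change was -0.23 over the receptors and -0.33 over the handling genes, against -0.14 over all genes. Without scaling the receptor and handling medians turned to 0.22 and 0.12.

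**Figure D5:**
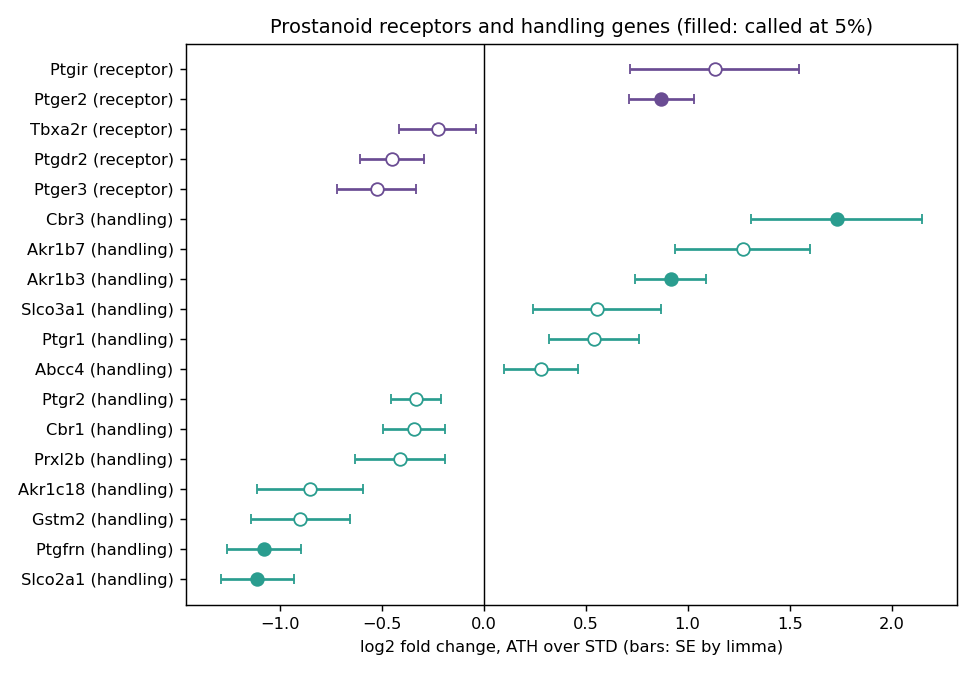
Log2 fold change (ATH over STD) of the 5 detected prostanoid receptor genes and 13 handling genes, by the brightest probe, with bars for the SE by limma and filled circles for genes called at 5%. Ptger2, Cbr3 and Akr1b3 are called higher, and Slco2a1 and Ptgfrn lower.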

How the data were processed

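Liver RNA of 8 mice was hybridized to 8 single-color Agilent arrays. The authors ran Agilent Feature Extraction version 9.5 with its default settings, and the deposited spot intensity values are background-subtracted but not scaled between arrays. The authors also deposited log2 values from GeneSpring, which differ from the log2 of these intensities by 1 constant for each array and 1 for each probe, within 0.001 for 100% of 31056 shared probes.

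Outlier spots were left out, spots of a probe were averaged, and the array's 75th percentile of log2 signal over non-control probes was subtracted. Diets were compared by limma 3.58.1 in R 4.3.3 (lmFit, eBayes, two-sided, Benjamini-Hochberg over all detected probes). Differences between members were compared by exact permutation over the 70 assignments of the arrays, with Python 3.11.15, numpy 2.4.6, pandas 2.3.3 and scipy 1.17.1, and drawn with matplotlib 3.10.9. The members, gene lists and motifs were chosen with earlier results of these data known. All members were named, with every receptor and handling gene called at 5% and up to 4 others per list, and the 3 genes most like each called member gene, of which 1 is not reported here.

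Probes were named by accession, symbol or synonym through a RefSeq gene table. Positions follow the mm7 build of the array design, for which no gene annotation was used here. STD and ATH arrays of equal number sat at the same slide position, and were treated as pairs in the fit with a replicate block. Over probes their departures from the diet mean had correlations of 0.1001, 0.2296, 0.1815 and 0.1766. Arrays of unequal number gave -0.2512 (STD array 2 with ATH array 3) to 0.1755 (STD array 2 with ATH array 1), the latter above the lowest value of equal numbers. The limma fit was tested on simulated data, with changes added to values already scaled and filtered, and this did not cover the scaling or the detection filter. Alternatives covered scaling, background correction (normexp, offset 50), detection filter, test, threshold, block and each array left out. The number of arrays, 4 per diet, limits the precision, and p-values measure the spread between single mice.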

Additional observations from a re-analysis of the deposited data

How the results depend on the processing

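Calls of the member probes lay close to the threshold. Of 12 probes, 5 were called, against 3 with median scaling, 1 without the detection filter, 1 with the replicate block, 0 by the methods' test (analysis of variance with unequal variances) and 0 at 1%, and between 0 and 6 with 1 array left out, 0 without ATH array 3 or 4 or STD array 1 or 3. Of 9 member genes, 3 were called, against 1 without the filter and 0 with the block, the methods' test or 1%, and between 0 and 4 with 1 array left out. Receptors called numbered 1, against 2 without scaling, 3 with normexp background correction and 0 by the methods' test or at 1%, and between 0 and 2 with 1 array left out. Handling genes called numbered 4, against 7 without scaling, 2 with the block and 0 by the methods' test or at 1%, and between 0 and 4 with 1 array left out. Over all 31056 detected probes 2483 were called, against 7364 without scaling, 6394 with normexp, 1870 with median scaling and 1322 with the block. This count was 644 without ATH array 3, 495 without ATH array 4, 432 without STD array 1 and 394 without STD array 3. Without the detection filter 1086 of 41174 probes were called, and at 1% by limma 164 of 31056. The cause of the changes in these counts was not tested. As rerun here, the analysis of variance with unequal variances called 22 of 31056 detected probes at 5% and none at 1%. The study reports a list of changed probes from its own run of such a test, which the rerun did not reproduce. The absence of member calls in the rerun is therefore not a result of the authors' test. Why the runs differ was not tested.

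Under normexp correction 3 pair differences passed 5%, each at adjusted p = 0.0381 by exact permutation test: Tbxas1 minus Ptgis at 1.50, Ptges minus Ptges2 at 0.518 and Ptgs1 minus Hpgd at 0.977. Hpgds minus Ptgds, 0.0726 as reported, was -0.744 under normexp, -0.0262 without STD array 2, -0.268 without STD array 4, -0.230 without ATH array 3 and -0.115 without ATH array 4. With 1 array left out the pair differences were 1.38 to 1.78 for Tbxas1 minus Ptgis, 1.02 to 1.13 for Ptgs1 minus Hpgd, 0.656 to 1.09 for Ptges minus Ptges2 and -0.268 to 0.388 for Hpgds minus Ptgds. In the replicate block 4 pairs of arrays cannot give a p below 0.125.

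Signs of uncalled probes turned for Ptges under normexp (-0.0500), for Ptges3 without scaling (0.173 and 0.210) and with spike-in scaling (0.0373 and 0.0743), for the brightest Hpgd probe without scaling (0.0743), and for Ptgis without scaling (0.414), with spike-in scaling (0.278), quantile normalization (0.0698) or median scaling (0.0415), without ATH array 2 (0.0746) and without STD array 4 (0.0137), with a lowest value of -0.151 without ATH array 4. No called member probe turned its sign under any alternative run. Over all detected probes the calls at 5% were 949 higher and 1534 lower, against 6990 and 374 without scaling, 2537 and 398 with spike-in scaling, 1210 and 5184 with normexp, 479 and 843 with the block, and 6 and 16 by the methods' test. Signal over background limits Ptgs2 and Hpgds, whose values lie near the lowest signal above background.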
